A study of Homo sapiens with 45 samples.

Results

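SNHG1, SNHG5, SNHG6, SNHG7, SNHG8 and GAS5 are genes whose spliced transcripts code for no known functional protein and whose introns carry small nucleolar RNA (snoRNA). The 6 genes were taken by name as rows of the deposited tables, which list 23045 genes in 45 single cells, and each was described in every cell and set against the 79 cytosolic ribosomal protein genes. The cells came from H1, a human embryonic stem cell line, grown on Matrigel in mTESR1 medium at passage 40. Live cells (labelled DAPI-) and fixed cells (DAPI+) were each prepared with FRISCR, a procedure that recovers RNA from single fixed cells, or by direct lysis in the detergent Triton X-100. The groups held 15 live FRISCR, 12 fixed FRISCR, 11 live Triton and 7 fixed Triton cells, all of the same line and passage, and a code in the sample titles divides every group into 2 library sets. The labels' extraction protocol describes cortical tissue and gives no separate account of the H1 preparation or of its fixative.

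A snoRNA host gene is transcribed and spliced like an mRNA gene, and its snoRNAs are trimmed out of the excised introns. Box C/D snoRNAs guide methylation and box H/ACA snoRNAs guide pseudouridylation of ribosomal RNA. Many such hosts, like ribosomal protein genes, begin transcription in a stretch of pyrimidines, the 5' terminal oligopyrimidine (TOP) motif, which ties translation of an mRNA to growth signals. The spliced host RNA of several of these genes, GAS5 among them, is short and is degraded by nonsense-mediated decay when it is translated. Smart-seq2, the method named in the labels, copies polyadenylated RNA, so that the spliced host and not the excised snoRNA is its main template.

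The gene starts are shown because a pyrimidine start is known from many host genes and from ribosomal protein genes. Not all windows below hold one at the listed start. Windows from 20 bases before to 30 after the start were read from RefSeq's promoter table (GRCh38.p14), which matched 5 of the 6 genes, 78 of the 79 ribosomal protein genes and EEF1A1, a translation factor gene with a classical TOP start. Each is written 5' to 3' on the gene's strand, and capitals mark the longest unbroken run of C and T, the first where runs tie.

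SNHG1 (chr11:62855856-62855905, minus strand): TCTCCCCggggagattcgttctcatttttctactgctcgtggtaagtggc
SNHG5 (chr6:85678704-85678753, minus strand): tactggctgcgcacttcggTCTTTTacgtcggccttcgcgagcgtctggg
SNHG7 (chr9:136728155-136728204, minus strand): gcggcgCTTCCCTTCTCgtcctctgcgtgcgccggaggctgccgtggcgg
SNHG8 (chr4:118278742-118278791, plus strand): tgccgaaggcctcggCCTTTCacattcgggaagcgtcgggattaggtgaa
GAS5 (chr1:173869016-173869065, minus strand): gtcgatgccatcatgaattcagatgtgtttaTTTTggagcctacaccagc
RPLP0 (chr12:120201082-120201131, minus strand): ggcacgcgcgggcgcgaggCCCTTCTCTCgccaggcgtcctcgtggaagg
RPS12 (chr6:132814549-132814598, plus strand): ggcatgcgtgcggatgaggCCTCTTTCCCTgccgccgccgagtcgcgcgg
RPS29 (chr14:49598681-49598730, minus strand): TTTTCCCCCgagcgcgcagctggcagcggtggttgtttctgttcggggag
EEF1A1 (chr6:73521003-73521052, minus strand): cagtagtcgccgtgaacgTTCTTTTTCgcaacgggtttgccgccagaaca

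RPLP0, a protein of the ribosomal stalk, RPS12, a protein of the small subunit, and EEF1A1 hold runs of 10, 11 and 9 pyrimidines that span the start. In RPS29, another protein of the small subunit, the longest run, of 9, opens 20 bases before the start and ends upstream of it. In SNHG5 a run of 6 opens 1 base before the start, and in SNHG8 one of 6 opens 5 bases before it. SNHG7 has the longest run of the host genes, 11 bases, which ends upstream of the listed start, and a further run of 6 that spans it. In SNHG1 a run of 7 opens 20 bases before the start and also ends upstream of it. Another run of 7 lies downstream of the SNHG1 start, and one of 5 spans it. The listed GAS5 start lies 1058 bases upstream of that of its RefSeq noncoding transcript, so that its window, with a run of 4, is not the start of that transcript. For SNHG1 and SNHG8 the table's start lies 18 bases before and 53 bases after that of the RefSeq transcript. Runs of at least 6 pyrimidines stood in 4 of the 5 host windows, in 73 of the 78 ribosomal protein windows (93.6%) and in 43.6% of all 35116 windows of the table. At a minimum of 10 the shares were 1 of 5, 57 of 78 (73.1%) and 9.58%. These counts describe letters in a window and show no binding or use of a start.

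Some of the excised snoRNAs are shown because the tables also list snoRNA rows, which tell host exons from the RNA in their introns. They were read from the GENCODE 29 transcripts. In the box C/D snoRNAs capitals mark the C box core TGATGA within the first 20 bases and the D box CTGA within the last 20, and in SNORA24 the ACA that stands 3 bases from the end.

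SNORD27 (in SNHG1): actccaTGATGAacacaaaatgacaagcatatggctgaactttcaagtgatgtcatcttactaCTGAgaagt
SNORD25 (in SNHG1): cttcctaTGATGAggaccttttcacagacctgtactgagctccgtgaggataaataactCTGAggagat
SNORD50B (in SNHG5): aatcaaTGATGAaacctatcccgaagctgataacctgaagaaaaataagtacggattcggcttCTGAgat
SNORA24 (in SNHG8): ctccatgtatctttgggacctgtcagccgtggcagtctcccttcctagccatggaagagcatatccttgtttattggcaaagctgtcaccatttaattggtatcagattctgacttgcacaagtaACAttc

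Of the snoRNAs of these hosts that could be matched, 4 of 7 box C/D snoRNAs hold that C box core and 3, SNORD22, SNORD26 and SNORD28, do not, and 2 of 3 H/ACA snoRNAs hold the ACA end. The 4 shown were taken from those that hold the letters. Both boxes were found on the transcript's strand in 22.8% of the 955 annotated snoRNA transcripts of at least 40 bases, and the ACA end in 29.4%. In the count table the hosts were abundant and their snoRNAs were not. The 24 rows of snoRNAs known to lie in the 6 genes held 166 counts over all 45 cells, and 10 of these rows were at 0. This was 0.158% of the 105393 counts of the hosts. SNORD27, SNORD25 and SNORD50B held 4, 4 and 1 counts, and SNORA24 held 14 in 7 cells. The highest were SNORD22 with 49 counts and SNORD47, carried by GAS5, with 42 counts in 21 cells. A row at 0 allows up to 3 counts, 0.014 CPM (counts scaled to a total of 1000000) over all cells.

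Levels of different genes were compared in TPM, the authors' transcript measure that is scaled by transcript length. GAS5, a growth-arrest transcript known as a decoy for the glucocorticoid receptor, was the highest of the 6 by median in each group. Its deposited TPM ranged from 351 to 924 with a median of 616 in live FRISCR cells, and from 305 to 998 with a median of 565 in fixed FRISCR cells. In Triton cells it ranged from 258 to 875 with a median of 408 when live, and from 103 to 1509 with a median of 996 when fixed. The live and fixed ranges overlapped under both procedures, and 6 of the 7 fixed Triton cells were above the live Triton median.

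SNHG5, host of SNORD50, was the second by median. Its TPM had medians of 337 (42.9 to 486) in live and 319 (180.5 to 565) in fixed FRISCR cells, and of 238 (123 to 423) in live and 283 (0 to 686) in fixed Triton cells. SNHG8, host of SNORA24, came next, with medians of 202 (36.6 to 369), 196 (65.9 to 376), 230 (80.2 to 342) and 272 (0 to 502) TPM in the same order. GAS5 exceeded SNHG5 in 15 of 15, 11 of 12, 10 of 11 and 7 of 7 cells. SNHG5 exceeded SNHG8 in 13 of 15 and 10 of 12 FRISCR cells, but in 7 of 11 and 4 of 7 Triton cells, where the medians lay closer together than the spread over cells.

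SNHG1, which carries a cluster of box C/D snoRNAs, had medians of 104 (47.1 to 302), 184 (9.72 to 257), 141 (32.1 to 236) and 219 (0 to 333) TPM in live FRISCR, fixed FRISCR, live Triton and fixed Triton cells. SNHG6, host of SNORD87, had medians of 124 (30.2 to 175), 158 (26.5 to 293), 55.2 (0 to 129) and 116 (0 to 149) TPM. In the FRISCR groups the order of SNHG1 and SNHG6 was not kept from cell to cell: SNHG6 was above in 8 of 15 live cells and SNHG1 in 6 of 12 fixed cells. SNHG7, host of SNORA17 and SNORA43, was the lowest by median in each group, with medians of 13.0 (0.57 to 32.6), 10.8 (0.93 to 29.7), 5.53 (0.71 to 33.98) and 2.42 (1.82 to 4.57) TPM.

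**Figure D1:**
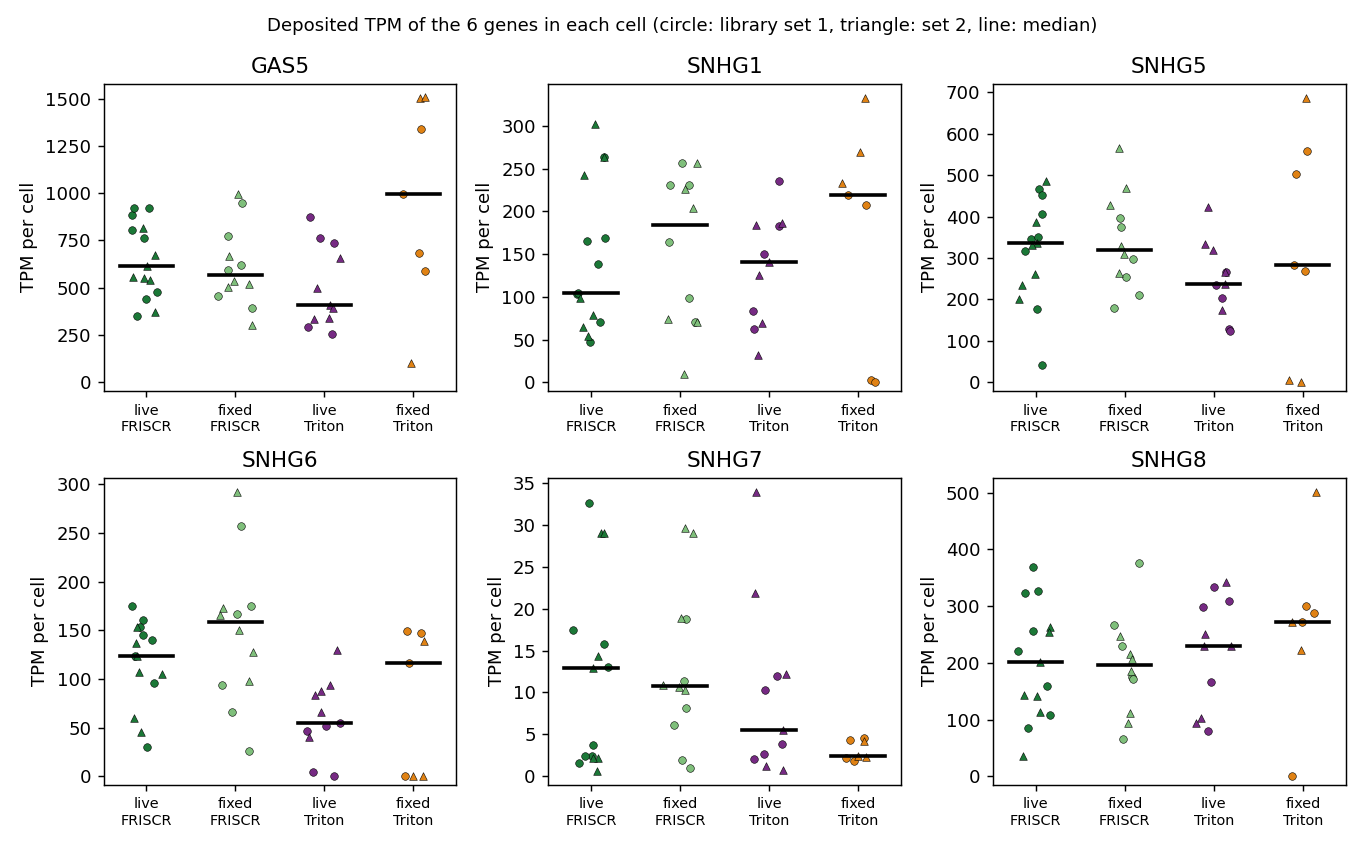
Deposited TPM (linear axis) of each of the 6 genes in every cell of the 4 groups, with circles for library set 1, triangles for set 2 and a line at the median over cells. GAS5 lies highest by median in each group, and in fixed Triton cells SNHG1, SNHG5, SNHG6 and SNHG8 each have cells at 0.

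Beside ribosomal protein mRNAs, most host transcripts were low. The median ribosomal protein gene had a median TPM of 1775 in live and 2015 in fixed FRISCR cells, and of 1364 in live and 2016 in fixed Triton cells. GAS5 stood above 8 of the 79 ribosomal protein genes in each of the first 3 groups and above 15 in fixed Triton cells. SNHG1 stood above at most 1 of the 79 in any group, and SNHG7 above none. The lowest ribosomal protein gene was RPL28 in 3 groups, at 127, 145 and 117 TPM, and RPL22, at 160 TPM, in fixed Triton cells.

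The host transcripts also varied more from cell to cell. The coefficient of variation of CPM over cells was 46.6%, 48.9%, 51.96% and 76.2% for the median host gene in live FRISCR, fixed FRISCR, live Triton and fixed Triton cells. It was 21.1%, 23.6%, 20.2% and 32.5% for the median ribosomal protein gene. GAS5 was the steadiest of the 6 in both FRISCR groups, at 27.4% and 34.99%. Counting error takes a larger share of this spread in low genes, and its part in the difference was not tested.

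No FRISCR cell was without a count of any of the 6 genes, that is, none of 90 live and 72 fixed gene and cell pairs was at 0. In live Triton cells 1 of 66 pairs was at 0, SNHG6 in replicate 2. In fixed Triton cells 6 of 42 pairs (14.3%) were at 0: SNHG1 in replicate 2, SNHG5 in replicate 7, SNHG6 in replicates 1, 5 and 6, and SNHG8 in replicate 1. A count of 0 allows a level of up to 0.54 to 0.80 CPM in these cells. None of the 553 ribosomal protein pairs in fixed Triton cells was at 0. Among all 2873 genes that averaged 50 to 200 CPM over the live Triton cells, 37.5% of the pairs in fixed Triton cells were at 0. SNHG1, SNHG5 and GAS5 lie in that range, with 2 of their 21 pairs at 0.

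Facts of the whole set of cells bear on the comparisons. Totals ranged from 3388417 to 6594043 counts per cell. Thinned to 1000000 counts, the median cell held counts for 9070, 8919, 9670 and 5071 genes in live FRISCR, fixed FRISCR, live Triton and fixed Triton cells. The abundant row TVAS5 took a median of 0.826%, 0.773%, 6.90% and 26.3% of the counts, so that the fixed Triton cells stand apart from the other 38 cells. All 8 embryonic stem cell markers, POU5F1 and NANOG among them, were at 10 CPM or more in each group, and their summed CPM ranged from 3161 to 7206 over live FRISCR, 3990 to 6417 over fixed FRISCR, 4004 to 5556 over live Triton and 1057 to 2472 over fixed Triton cells. Of the 8 neural progenitor markers 3 reached 10 CPM in both FRISCR groups and in live Triton cells, and 2 in fixed Triton cells. HES5 and SOX1 were at 0 in all groups, and the 8 summed to 0.232 to 809 CPM per cell. Of the 6 fibroblast markers 2 reached 10 CPM in each group, and COL3A1, DCN and LUM were at 0, with sums from 0 to 528 CPM. No label ties cells to separate cultures, so a group counts as 1 sample and no test between groups was possible. The ratios compare counts summed over a group's cells, as CPM, and their exact 95% binomial intervals hold the error of counting alone, as reads that carry no molecular identifier can repeat a molecule. In all of them fewer transcripts per cell and poorer recovery of RNA cannot be told apart.

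How far fixation moved these transcripts when RNA was recovered by FRISCR was read from fixed against live FRISCR cells. The 6 genes summed to 446 CPM in live and 490 CPM in fixed cells, a log2 ratio of 0.14 (95% interval 0.11 to 0.16), or 1.10-fold. Over cells the summed level was 440 ± 91.7 CPM (SD, 15 cells) live and 492.7 ± 107 CPM (SD, 12 cells) fixed, so that the difference is smaller than the spread between cells. None of the 6 passed 2-fold, beside 11% of the 7518 genes that reached 20 CPM in live or fixed FRISCR cells (3.34% higher and 7.69% lower). SNHG7 was below this minimum in every group and so is not among the genes tested in any comparison.

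Gene by gene, SNHG6 differed most, at 25.1 CPM in live and 35.3 CPM in fixed FRISCR cells, a log2 ratio of 0.49 (0.40 to 0.58). It was the one member whose ratio had the same sign, and was above 0, in both library sets, at 0.14 and 0.80. GAS5 was level at 201 and 204 CPM, a log2 ratio of 0.02 (-0.02 to 0.06), with -0.01 and 0.06 in the sets. SNHG1 gave 0.18, with 0.49 in set 1 and -0.11 in set 2, and SNHG5 gave 0.23, with -0.05 and 0.42. SNHG7 gave 0.41 and SNHG8 0.11, and both were below 0 in set 1. The median of the 6 was 0.21, beside -0.02 for all genes tested and 0.26 for the 79 ribosomal protein genes. Of the latter 76 were above 0, from RPL3 at -0.20 to RPS26 at 0.62.

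Under Triton lysis the same question was asked without FRISCR. The 6 genes summed to 367 CPM in live and 856 CPM in fixed cells, a log2 ratio of 1.22 (1.20 to 1.25), or 2.33-fold. All 7 fixed cells, at 391 to 1396 CPM, were above the live median of 381 CPM, although the lowest of them was below the highest live cell, at 500.3 CPM. In summed TPM fixed Triton replicate 7, at 701, was below the live Triton median of 1216. The log2 ratio in CPM was 0.93 in library set 1 and 1.52 in set 2. Over the 7256 genes tested the median ratio was -1.501, that is, most genes were lower in the fixed cells while 5 of the 6 host genes were higher. Past 2-fold were GAS5 and SNHG6, both higher, but in mean TPM neither was, with log2 ratios of 0.93 and 0.40. Of all genes tested 12.4% were past 2-fold higher and 58.5% lower, 70.9% in either direction. Another scaling of the totals shifts all genes of this comparison together: by TMM, edgeR's trimmed mean of M-values, each log2 ratio is 1.02 larger, the sum of the 6 genes is at 2.24 and the median of all genes at -0.48.

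GAS5 had 159 CPM in live and 472 CPM in fixed Triton cells, a log2 ratio of 1.57 (1.53 to 1.60), or 2.96-fold. In mean deposited TPM the log2 ratio was 0.93, and in CPM it was 1.26 and 1.89 in the 2 sets. In the 7 fixed cells its level was 653, 499, 271 and 298 CPM in replicates 1 to 4 of set 1, and 665, 822 and 49.95 CPM in replicates 5 to 7 of set 2. Replicate 7 was thus below each of the 11 live Triton cells, which ran from 79.8 to 268 CPM, and the other 6 were above them all in CPM. In TPM replicates 3 and 4, at 589 and 686, were below the highest live Triton cell, at 875. GAS5 was the one member whose ratio was above 0 in both sets.

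The remaining host genes differed between the sets. SNHG1, at 81.6 CPM live and 160 CPM fixed, had a log2 ratio of 0.97 (0.91 to 1.03), which was -0.14 in set 1 and 1.81 in set 2. Its fixed cells held 2.79, 0, 185 and 179 CPM in set 1 and 228, 331 and 212 CPM in set 2, so that 5 cells exceeded the highest live cell, at 149 CPM, and 2 were at or near 0. In TPM replicates 3, 4 and 7, at 208, 219 and 234, were below the highest live cell, at 236. SNHG5, at 58.9 CPM live and 109 CPM fixed, had a ratio of 0.89 (0.82 to 0.96), with 1.59 in set 1 and -0.00 in set 2. Its fixed cells held 108, 104, 176 and 187 CPM in set 1, and 232, 1.963 and 0 CPM in set 2. In SNHG5, too, 5 cells were high and 2 at or near 0, but these were replicates 6 and 7 and not replicates 1 and 2.

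SNHG8, at 47.7 CPM live and 83.3 CPM fixed, had a log2 ratio of 0.80 (0.72 to 0.88), with -0.33 in set 1 and 1.76 in set 2. Its fixed cells held 0, 60.9, 59.6 and 69.8 CPM in set 1 and 68.7, 233 and 76.6 CPM in set 2. Replicate 6 alone gave 43.9% of the group's SNHG8 counts, and without it the ratio was 0.22. SNHG6, at 12.4 CPM live and 26.3 CPM fixed, had a ratio of 1.08 (0.93 to 1.23), which was 2.47 in set 1 and -0.09 in set 2. It reached the minimum of 20 CPM through the fixed cells alone, and the fifth of genes that was lowest in live Triton cells, to which it belongs, had a median of 0.46. Leaving out replicate 2 gave a ratio of 0.77, below 2-fold. SNHG6 held 52.5, 47.8, 35.8 and 48.1 CPM in replicates 2, 3, 4 and 7, each above the highest live cell at 27.2 CPM, and 0 in replicates 1, 5 and 6. In TPM replicate 4, at 116, was below the highest live cell, at 129. Fixed Triton cells thus tended to hold much or nothing of SNHG1, SNHG5 and SNHG6, with few values between.

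**Figure D2:**
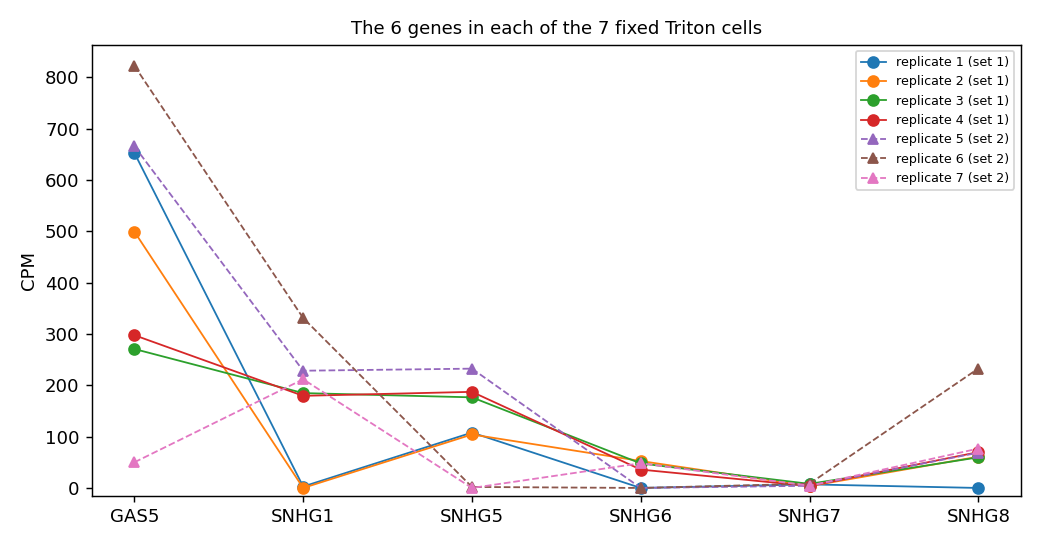
CPM (linear axis) of each of the 6 genes in the 7 fixed Triton cells, with a line per cell, solid for library set 1 and dashed for set 2; the lines join values of 1 cell and mark no order of genes. Cells at or near 0 differ from gene to gene, and replicate 7 is lowest for GAS5 while replicate 6 is highest for SNHG1, SNHG7, SNHG8 and GAS5.

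SNHG7 was the exception. It had 6.80 CPM in live and 5.56 CPM in fixed Triton cells, a log2 ratio of -0.29 (-0.56 to -0.02), which was above 0 under TMM (0.73) and further below 0 in mean TPM (-1.63). All 7 fixed cells held it at 3.57 to 8.29 CPM, a coefficient of variation of 36.9%, while the live Triton cells ran from 0.866 to 23.0 CPM, 96.6%. Its fixed Triton sum rests on 162 counts, and without live Triton replicate 8, which gave 29.3% of the live counts, the ratio was 0.08.

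The ratio of counts to TPM of a gene, set against the same ratio of the median ribosomal protein gene of the cell, gives a relative length implied by the authors' quantification, whose method is not known here. For GAS5 it was nearly constant, with a median of 0.88 in each group and single cells from 0.87 to 0.89. SNHG5 and SNHG6 had medians from 0.67 to 0.68 and from 0.61 to 0.63, and SNHG1 from 1.67 to 1.71, so that SNHG1 alone of these 4 was treated as longer than the median ribosomal protein mRNA. SNHG8 varied from cell to cell, from 0.36 to 0.85. SNHG7, in cells with at least 20 counts, had a median of 1.59 in 8 live and 1.73 in 10 fixed FRISCR cells, and of 1.90 in 7 live and 3.19 in 3 fixed Triton cells. With a minimum of 10 counts all 7 fixed Triton cells could be read, and they ranged from 2.94 to 3.42 with a median of 3.30. At this minimum 3 of 11 live FRISCR, 1 of 10 fixed FRISCR and 3 of 9 live Triton cells were also at 2.94 or above, with highest values of 3.52, 3.12 and 3.49, so the groups overlapped. Medians there were 1.64, 1.73 and 1.957. GENCODE 29 lists SNHG7 transcripts from 509 to 2357 bases. Levels of SNHG7 by count and by TPM did not give the same ratio between groups, which is why both are stated. In fixed over live Triton cells the other host genes also had lower ratios in mean TPM. GAS5, of nearly constant implied length, was at 1.57 in CPM and 0.93 in mean TPM. The part of implied length in the gap for SNHG7 was not tested.

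**Figure D3:**
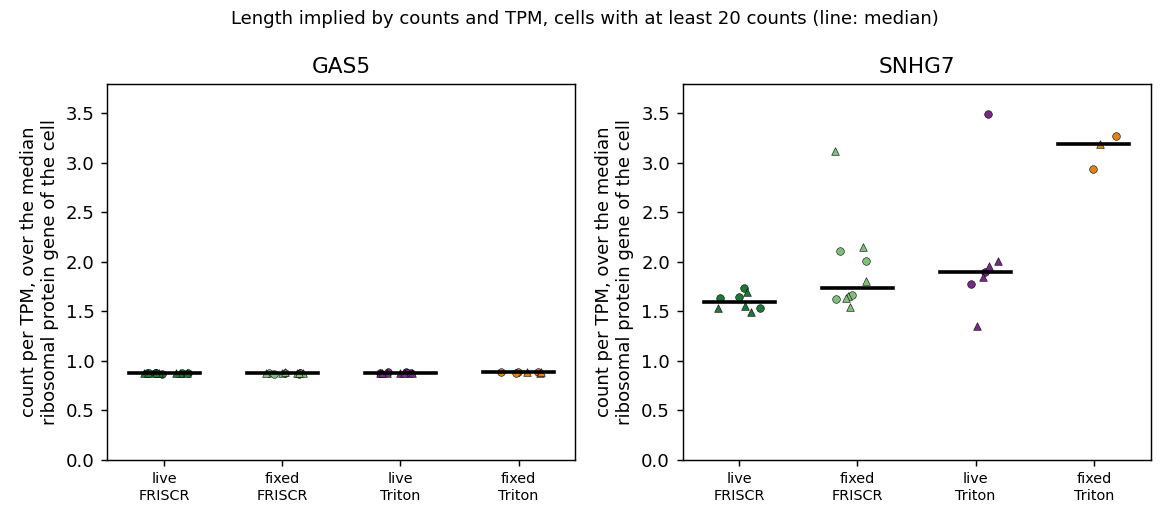
Counts per TPM of GAS5 and SNHG7 in each cell with at least 20 counts, divided by the same ratio of the median ribosomal protein gene of that cell (no unit), by group, with circles for library set 1, triangles for set 2 and a line at the median. GAS5 stays at 0.88 in each group, and the 3 fixed Triton cells of SNHG7 lie at 2.94 to 3.28; cells with fewer counts, which reach 3.52 in live FRISCR, are not drawn.

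By this implied length 5 of the 6 genes fall in the shortest of 5 equal bins of the genes tested, together with 72 of the 79 ribosomal protein genes. SNHG7 was below the minimum of 20 CPM. In fixed over live Triton cells the 1452 genes of that bin had a median log2 ratio of 0.02, and the other 4 bins had medians from -2.16 to -1.52. The 5 host genes were at 0.80 to 1.57, and SNHG6 among them reached 20 CPM through the fixed cells alone. This bin spans relative lengths from 0.11 to 2.48, so its genes are not closely matched in length. Within FRISCR the same bin had a median of 0.23 and the other bins -0.21 to -0.01. The part of length in the host genes' ratios was not tested.

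FRISCR and Triton lysis were compared first in live cells. The sum of the 6 genes was 446 CPM after FRISCR and 367 CPM after Triton lysis, a log2 ratio of 0.28 (0.26 to 0.31), with 0.18 and 0.37 in the library sets. SNHG6, at 25.1 against 12.4 CPM, was the one gene past 2-fold, with a ratio of 1.02 (0.89 to 1.14), beside 6.57% of the 7447 genes tested that were past 2-fold higher, 3.14% past 2-fold lower and 9.71% in either direction. It reached 20 CPM in live FRISCR cells alone, and the fifth of genes lowest in live Triton cells, to which it belongs, had a median of 0.63, so its call is not independent of that minimum. By TMM its ratio was 0.93 and in mean TPM 0.96, both below 2-fold, and it was as low as 0.86 without live Triton replicate 1. The ratio was 2.12 in set 1, against 0.43 in set 2, and 13 of the 15 FRISCR cells were above the live Triton median. No ribosomal protein gene had a larger ratio than SNHG6 in this comparison. GAS5, at 0.33, and SNHG5, at 0.37, lay near the ribosomal protein median of 0.33. SNHG1 was at 0.16, but its median cell was lower after FRISCR (-0.45), SNHG7 was at 0.09, which was -0.02 by median-of-ratios scaling, and SNHG8 was at -0.06. The median of the 6 was 0.25, beside 0.10 for all genes tested.

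In fixed cells the order was the other way for the sum. It was 490 CPM after FRISCR and 856 CPM after Triton lysis, a log2 ratio of -0.80 (-0.83 to -0.78), with -0.69 and -0.95 in the library sets. None of the 12 fixed FRISCR cells reached the fixed Triton median in CPM. In summed TPM fixed FRISCR replicates 4, 9 and 11, at 1828, 2046 and 1725.8, were above the fixed Triton median of 1724.6. The log2 ratio of the mean summed TPM was -0.31. GAS5 was the one gene past 2-fold, at 204 against 472 CPM, a ratio of -1.21 (-1.25 to -1.18), with -1.10 and -1.34 in the sets. It was not past 2-fold without fixed Triton replicate 6 (-0.997) or in mean TPM (-0.66). Of the 7272 genes tested 10.6% were past 2-fold lower and 59.8% higher, 70.5% in either direction, and their median was 1.53. SNHG1 was at -0.62, with 0.42 in set 1 and -1.42 in set 2, SNHG8 at -0.76, and SNHG5 at -0.30, with -1.01 and 0.64 in the sets. SNHG6 was at 0.43 and SNHG7 at 0.79, and both fell below 0 under TMM, at -0.66 and -0.30. The fixed FRISCR and the fixed Triton cells also serve in the comparisons above, and the live groups are shared likewise, so the 4 ratios of a gene are not independent.

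**Figure D4:**
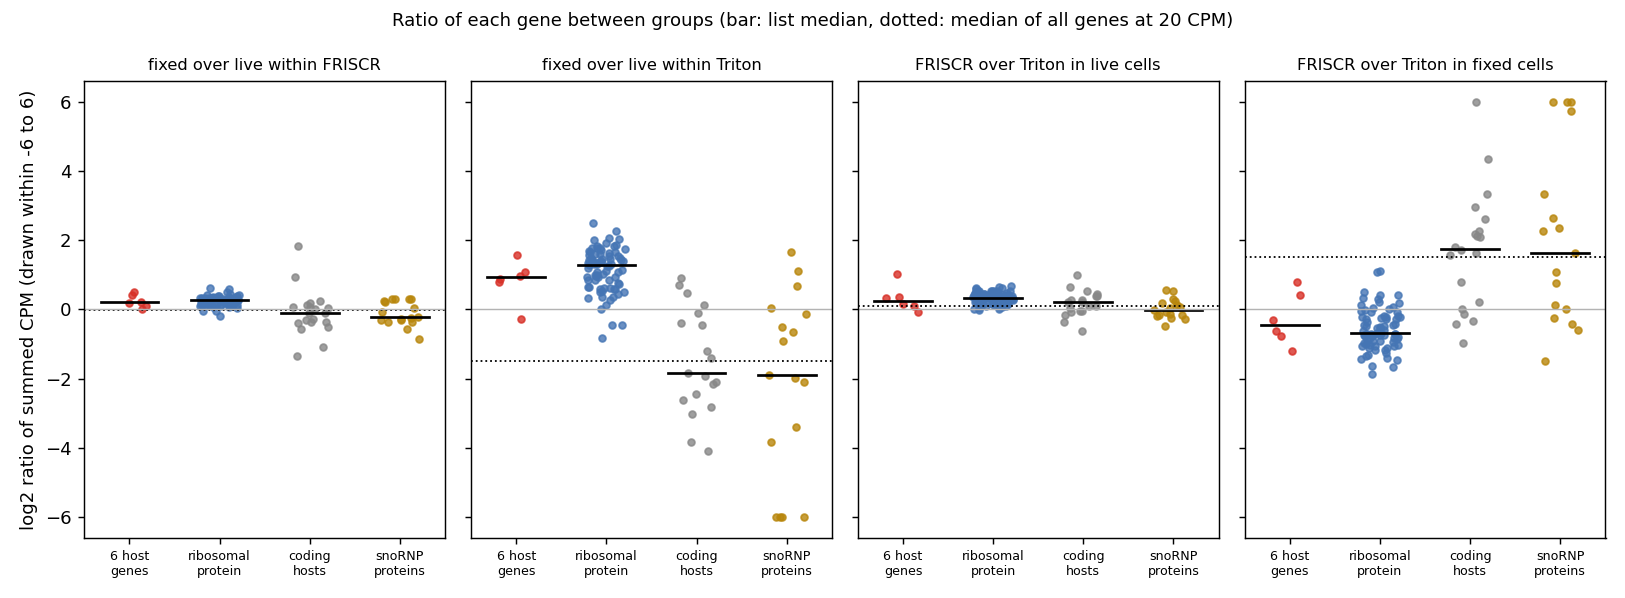
Log2 ratio of summed CPM of each gene in the 4 comparisons, for the 6 host genes, the 79 ribosomal protein genes, protein-coding snoRNA hosts and proteins of snoRNA particles (genes that reached 10 CPM in 1 of the groups compared, and all 6 host genes), with a bar at the list's median and a dotted line at the median of all genes that reached 20 CPM; values beyond 6 are drawn at 6. In fixed over live Triton cells the host and ribosomal protein medians, 0.93 and 1.27, lie above 0 and the other medians below it.

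The comparison with ribosomal protein mRNA used ratios of counts, first summed over a group's cells and then taken cell by cell. In such a ratio the total and its abundant rows cancel. In summed counts there were 7.48 host counts per 1000 ribosomal protein counts in live and 7.08 in fixed FRISCR cells, against 7.58 in live and 8.28 in fixed Triton cells. Ribosomal protein genes took a mean of 5.97%, 6.93%, 4.82% and 10.2% of a cell's counts in these groups. Thus the hosts' share of counts was 2.33-fold higher in fixed than in live Triton cells while the ratio of the summed host to the summed ribosomal protein counts changed by 1.09-fold. Over cells the ratio had medians of 7.10, 7.07, 7.08 and 8.35, with SDs of 2.01, 1.38, 1.81 and 3.39, which are larger than any of the differences between the medians.

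As log2 ratios these differences were -0.08 (95% interval -0.10 to -0.06) for fixed over live FRISCR cells and 0.13 (0.10 to 0.15) for fixed over live Triton cells. They were -0.02 (-0.04 to 0.01) for FRISCR over Triton in live and -0.23 (-0.25 to -0.20) in fixed cells. The sign was not kept between library sets in the comparisons that use fixed Triton cells: fixed over live Triton gave -0.14 in set 1 and 0.38 in set 2, and FRISCR over Triton in fixed cells gave 0.03 and -0.46. In the 7 fixed Triton cells the ratio ran from 3.46 in replicate 7, the cell with little GAS5 and no SNHG5, to 13.6 in replicate 5. Set against the 27 ribosomal protein genes that carry snoRNA themselves, fixed over live Triton gave 0.41.

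Single genes differed more than this ratio of sums. Relative to ribosomal protein mRNA, in fixed over live Triton cells GAS5 was at 0.47, SNHG6 at -0.01, SNHG1 at -0.13, SNHG5 at -0.20, SNHG8 at -0.29 and SNHG7 at -1.39. In fixed over live FRISCR cells SNHG6, at 0.28, and SNHG7, at 0.19, were highest and GAS5, at -0.19, lowest. GAS5 supplied 9221 of the live and 13759 of the fixed Triton counts of the 6 genes, so the sum follows it more than any other member.

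**Figure D5:**
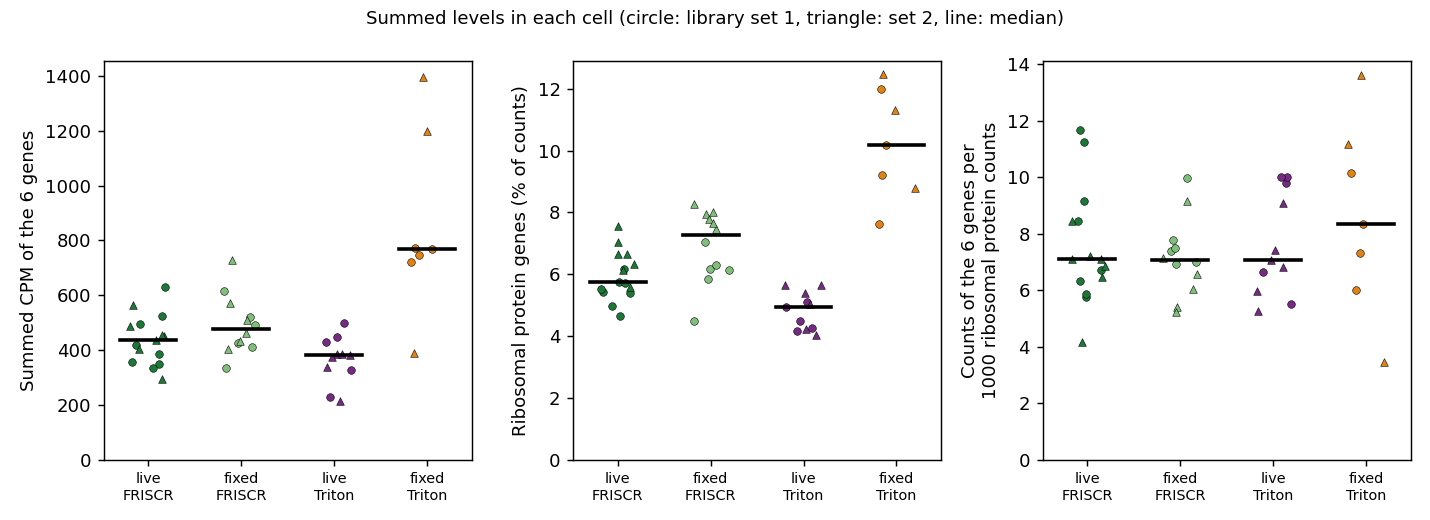
Summed CPM of the 6 host genes, share of counts in the 79 ribosomal protein genes (%) and host counts per 1000 ribosomal protein counts in every cell, by group, on linear axes from 0, with circles for library set 1, triangles for set 2 and a line at the median. The first 2 measures are higher in fixed Triton cells, with medians of 770.3 CPM and 10.2%, while the ratio's medians lie between 7.07 and 8.35.

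Across cells within groups the hosts did not follow ribosomal protein mRNA closely. With group and library set means removed, the summed level of the 6 genes and the summed ribosomal protein genes had a Pearson r of 0.14 over 45 cells (0.07 to 0.21 when each cell was left out), as log2(CPM + 1). These points share each cell's total, so r is a description and carries no p. Among the 15 pairs of host genes r had a median of 0.05, from -0.43 for SNHG6 and GAS5 to 0.51 for SNHG6 and SNHG8, whereas the 3081 pairs of ribosomal protein genes had a median of 0.33. Host genes had cells without a count, most of them fixed Triton cells, and ribosomal protein genes had none. The part of this in the gap was not tested. Of 6391 other genes that averaged 20 CPM or more and had a count in at least 60% of cells, the 5 with the highest r to the summed hosts were CCDC58 (0.66), HINT1 (0.61), a purine nucleotide hydrolase, MTPAP (0.59), the mitochondrial poly(A) polymerase, CLIC4 (0.59), a chloride intracellular channel protein, and CUTA (0.58). These 5 are the extremes of 6391 values with a median of 0.03, and whether they exceed chance was not tested. The best ribosomal protein gene reached 0.36.

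Other noncoding snoRNA hosts gave a mixed picture. Of 10 listed, 7 had at least 10 CPM in either Triton group, and in fixed over live Triton cells 3 of these 7 were above 0 with a list median of -0.69, beside -1.501 for all genes tested. ZFAS1 (listed as NCRNA00275) was at 39.5 CPM live and 173 CPM fixed, a log2 ratio of 2.13, and DANCR (listed as KIAA0114) at 289 and 546 CPM, a ratio of 0.92. SNHG9 had the highest ratio, 3.58, from 74 counts live and 445 fixed. SNHG9 reached 10 CPM in fixed cells alone, and SNHG10 and SNHG11 in live cells alone, so that minimum bears on the ratios of these 3 of the 7. SNHG3 was lower, at 85.9 and 50.4 CPM (-0.77). SNHG10 was lowest of those with counts in both groups, with 802 counts live and 3 fixed, a log2 ratio of -7.07 (-9.35 to -5.52). SNHG11 held 596 counts live and 0 fixed, at least 100-fold lower at the floor of 3 counts over the group. Within FRISCR ZFAS1, DANCR and SNHG3 were at 0.15, 0.11 and -0.05, and SNHG11 at -5.01, with 938 counts live and 22 fixed.

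Other gene lists are read against all genes tested in fixed over live Triton cells, of which 26.0% were above 0, 12.4% past 2-fold higher and 58.5% past 2-fold lower, with a median of -1.501. Protein-coding hosts outside the ribosome were near these shares. Of 19 with at least 10 CPM, 4 (21.1%) were above 0 and 12 (63.2%) past 2-fold lower, with a median of -1.83. TPT1, a short TOP mRNA, was highest at 0.89 and EIF4A2, a translation initiation helicase, lowest at -4.09, while RACK1 (listed as GNB2L1), a ribosome-bound scaffold, was at 0.13 and HSPA8, a chaperone, at -1.83. The 27 ribosomal protein genes that carry snoRNA had a median of 1.09, with 24 above 0 and 15 past 2-fold higher, beside 76 and 48 of all 79 and a median of 1.27 for these.

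Of 19 further genes with TOP starts 6 (31.6%) were above 0 in fixed over live Triton cells, beside 26.0% of all genes, with a median of -0.68 beside -1.501. PFDN5, a prefoldin subunit, was highest at 1.43, and HNRNPA1, an RNA-binding protein, lowest at -1.78. EEF1A1, whose start is printed above, was at -0.68, and the ribosomal protein genes ran from RPL4 at -0.83 to RPS29 at 2.50. Within FRISCR the TOP list had a median of 0.11 with 13 of 19 above 0.

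Proteins that bind snoRNA or assemble its particles had a median of -1.90 in fixed over live Triton cells, with 4 of 17 above 0 (23.5%), 2 past 2-fold higher (11.8%) and 9 past 2-fold lower (52.9%), near the shares of all genes. NOP10, a small H/ACA core protein, was highest at 1.67, NHP2, of the same core, was at 0.05, and FBL (fibrillarin), the C/D methyltransferase, at -0.66. Within FRISCR their median was -0.22, with ZNHIT6 lowest at -0.85. Nonsense-mediated decay factors had medians of -0.05 in fixed over live FRISCR and -1.49 in fixed over live Triton cells, where 4 of 16 (25%) were above 0, near the share of all genes. Of long noncoding genes that host no snoRNA 4 had at least 10 CPM. MALAT1, a nuclear transcript, was at 0.16 in fixed over live Triton cells but at -3.00 in FRISCR over Triton in live cells, and MIAT was at -2.19 and 1.505.

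Some host loci overlap a gene on the opposite strand in GENCODE 29: GAS5 overlaps GAS5-AS1 and ZBTB37, SNHG6 overlaps MCMDC2, and SNHG7 overlaps FAM69B. Whether the counting used strand is not given in the sources used here, and reads of such partners cannot be told apart without it. ZBTB37 had 1.31, 2.23, 1.71 and 0 CPM in live FRISCR, fixed FRISCR, live Triton and fixed Triton cells. MCMDC2 (listed as C8orf45) had 9.61, 0.164, 0.311 and 0.858 CPM, and FAM69B had 16.7, 15.4, 6.54 and 0 CPM, above SNHG7 in both FRISCR groups.

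The fixation effects under FRISCR and Triton lysis were set side by side last. The log2 ratio of fixed over live cells for the sum was 1.09 lower with FRISCR than with Triton lysis, by 0.86 in library set 1 and 1.33 in set 2. For GAS5 the difference was -1.55, with -1.27 and -1.83 in the sets, the one gene of the 6 below 0 in both. SNHG1 gave -0.78, SNHG5 -0.66, SNHG6 -0.59 and SNHG8 -0.70, and SNHG7 gave 0.70, and each of these 5 had opposite signs in the 2 sets. The difference was not tested, since each group is 1 sample.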

How the data were processed

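Counts per gene and TPM in 45 cells were deposited by the authors. The authors deposited estimated counts, of which 40.3% of the nonzero ones hold a fraction, and TPM values that the authors scaled themselves. Per the submitters' processing notes the build was GRCh37 (hg19). Which aligner, quantifier and gene models made the values is not given in the sources used here. Per the labels' protocols libraries were made by Smart-seq2 and Nextera XT.

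Counts were rounded, no cell was left out, and cells were grouped by the labels' sample group. The 6 genes and the gene lists were chosen with earlier results of these data known. Counts were summed over a group's cells and divided by the summed totals. Ratios carry exact binomial intervals, and a sum of 0 was set to 3 counts. Background shares use genes that reached 20 CPM in 1 of the groups compared, and a 2-fold change. Genes named from the lists are among the 3 highest by mean TPM or the highest or lowest ratio of a comparison at 10 CPM or more. Those outside this rule, chosen after their values were seen, are RPL28 and RPL22 (lowest TPM) and the markers at 0 (HES5, SOX1, COL3A1, DCN and LUM). RPLP0, RPS12, RPS29 and EEF1A1 are named for their starts, and ZBTB37, FAM69B and MCMDC2 for their position. One listed comparison host with no snoRNA inside in GENCODE 29 was dropped after the data were seen. GAS5 has none there either but was kept, as the 6 genes were given by name, and its snoRNA rows were assigned from general knowledge. In addition, the reading of zeros by expression level and the minimum of 10 counts for SNHG7's length were added after the data were seen. Alternatives were TMM (edgeR 4.0.16), median-of-ratios (DESeq2 1.42.0, R 4.3.3), totals without 44 rRNA-named rows and TVAS5, means or medians over cells, TPM, single library sets and leaving out each cell. The code (Python 3.11.15) was tested on simulated data. Totals of 3388417 to 6594043 counts per cell make 1 count worth under 0.30 CPM.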

Additional observations from a re-analysis of the deposited data

Results flagged for a closer look

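SNHG8 was highest in fixed Triton replicate 6, at 233 CPM (232.559), far above the other 6 cells of the group, of which the next was at 76.6 CPM. A total of 8 sets of 7 values were examined in this way, and chance alone singles out about 1 set in 20. Without this cell SNHG8's log2 ratio was 0.22 in place of 0.80 in fixed over live Triton cells and -0.18 in place of -0.76 in FRISCR over Triton in fixed cells. The same cell had the highest SNHG1 (331 CPM) and GAS5 (822 CPM) of the group, no SNHG6 and 1.963 CPM of SNHG5, and TVAS5 took 16.2% of its counts, the lowest share of the 7 cells. The part of these in its SNHG8 level was not tested.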

How the results depend on the processing

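No paired analysis was possible because the labels pair no cells across groups and the ratios come from no test. Values are log2 ratios in the order fixed over live FRISCR, fixed over live Triton, FRISCR over Triton live and FRISCR over Triton fixed, where all 4 are given. For the sum of the 6 genes (0.14, 1.22, 0.28, -0.80) TMM gave 2.24, 0.20 and -1.89 in the last 3, and median-of-ratios 0.19, 2.42, 0.17 and -2.06. Totals without rRNA-named rows and TVAS5 gave 1.69, 0.18 and -1.37 in the last 3. Medians over cells gave 1.02, 0.20 and -0.69, the mean CPM 0.16 in the first, and mean TPM 0.026, 0.63 and -0.31 in the first, second and last. Library set 1 gave 0.071, 0.93, 0.18 and -0.69, and set 2 0.20, 1.52, 0.37 and -0.95. Leaving out single cells gave 0.072 to 0.19, 1.04 to 1.35, 0.22 to 0.35 and -0.94 to -0.62. For the ratio to ribosomal protein mRNA (-0.08, 0.13, -0.02, -0.23) the median over cells gave -0.0059 and 0.24 in the first 2, mean TPM -0.0049 in the second and -0.11 in the last, and ribosomal protein genes with snoRNA -0.025, 0.41, -0.070 and -0.50. Set 1 gave -0.14 in the second and 0.028 in the last, set 2 0.38 and -0.46, and single cells left out gave -0.13 to -0.018, 0.0038 to 0.28, -0.080 to 0.040 and -0.38 to -0.10. The difference of fixation effects (-1.09) was -0.60 in TPM, -0.86 in set 1 and -1.33 in set 2, and r with ribosomal protein genes (0.14) was 0.048 in TPM. SNHG6 in fixed over live Triton cells, 1.08 in all cells, was -0.086 in set 2. The cause of these changes was not tested. Summed SNHG7 rests on 162 to 525 counts a group, the thinnest of the 6.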
